A study of Homo sapiens with 7 samples.

Results

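The immediate early and AP-1 genes described here are FOS, JUN, JUNB, JUND, FOSL1, ATF3, EGR1, DUSP1 and IER2. They were chosen by name, with earlier results of these data known. Trimethylated lysine 4 of histone H3 (H3K4me3) was read at every listed region overlapping 3 kb on either side of their transcription starts in the hg19 genome, with 2 starts used for ATF3. The 9 genes gave 11 of the 30840 regions in the deposited table. All measurements came from HCT116, a human colon cancer cell line, with both copies of the histone demethylase gene KDM5A knocked out (KDM5A-/-). The knockout cells were transfected with mutant KDM5A, with wild-type KDM5A or with an empty vector, and were fixed 24 h later for chromatin immunoprecipitation and sequencing (ChIP-seq). Each transfection has 1 H3K4me3 library, called the mutant, wild-type and vector library below, so no difference below has a replicate check or a p-value. The knockout is shared by all 3 groups, the unmodified parental line was not analysed here, and which residue the mutant changes and what share of the cells took up a plasmid are stated nowhere in the labels. A lower value in all cells and a much lower value in some of them therefore cannot be told apart. The table holds no RNA or protein of KDM5A, so neither the knockout nor the transfections are checked here.

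Immediate early genes are transcribed within minutes of growth factor signals or stress, without new protein synthesis, through factors already bound at their promoters. Many encode parts of AP-1, a dimer of a FOS-family or ATF-family protein with a JUN-family protein that binds DNA and drives later genes. H3K4me3 sits around the starts of active and poised genes, immediate early genes included, and KDM5A is an enzyme that removes it. H3K4me3 is a mark on chromatin and not a measure of transcription.

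The promoters of 5 genes are shown because they carry the contrasts described below: the gene with the lowest ratio under mutant KDM5A (EGR1), the gene that gave the FOS family its name (FOS), a phosphatase gene with a ratio nearer to 1 (DUSP1), the gene with the strongest region (IER2), and the upstream start of ATF3, where the mark was weak. Each runs from 250 bases before to 50 bases after the start, 5′ to 3′ on the strand of the gene, from the RefSeq promoter table of GRCh38.p14. They lie at chr5:138465229-138465528 (EGR1), chr14:75278578-75278877 (FOS), chr19:13150161-13150460 (IER2) and chr1:212565157-212565456 (ATF3, upstream start) on the plus strand and at chr5:172771146-172771445 (DUSP1) on the minus strand. Capitals mark the CArG box (the DNA element of serum response factor), the cyclic AMP response element TGACGTCA, the EGR site GCGNGGGCG, the TATA box TATAAA and the GC box CCGCCC, each searched on both strands. CCGCCC is also the sequence that the ARID domain of KDM5A is known to prefer, so these letters stand for both.
EGR1: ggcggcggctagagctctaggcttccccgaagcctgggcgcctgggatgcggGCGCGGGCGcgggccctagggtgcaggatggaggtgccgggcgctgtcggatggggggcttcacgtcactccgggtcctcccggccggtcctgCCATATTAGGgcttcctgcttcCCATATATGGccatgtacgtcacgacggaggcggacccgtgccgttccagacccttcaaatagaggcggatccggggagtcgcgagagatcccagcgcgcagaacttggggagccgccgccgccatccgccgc
FOS: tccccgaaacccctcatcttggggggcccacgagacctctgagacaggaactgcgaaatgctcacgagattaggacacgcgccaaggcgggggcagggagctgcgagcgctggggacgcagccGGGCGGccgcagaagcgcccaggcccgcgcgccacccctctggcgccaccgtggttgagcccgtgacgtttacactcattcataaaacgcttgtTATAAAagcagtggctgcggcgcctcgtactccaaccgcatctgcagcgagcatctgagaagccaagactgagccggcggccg
DUSP1: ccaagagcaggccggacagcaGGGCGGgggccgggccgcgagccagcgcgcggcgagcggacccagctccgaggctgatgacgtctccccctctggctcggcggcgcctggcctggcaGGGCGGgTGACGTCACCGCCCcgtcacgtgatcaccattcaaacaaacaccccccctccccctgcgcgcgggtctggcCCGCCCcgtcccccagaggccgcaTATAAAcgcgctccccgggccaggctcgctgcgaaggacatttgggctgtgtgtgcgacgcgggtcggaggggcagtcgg
IER2: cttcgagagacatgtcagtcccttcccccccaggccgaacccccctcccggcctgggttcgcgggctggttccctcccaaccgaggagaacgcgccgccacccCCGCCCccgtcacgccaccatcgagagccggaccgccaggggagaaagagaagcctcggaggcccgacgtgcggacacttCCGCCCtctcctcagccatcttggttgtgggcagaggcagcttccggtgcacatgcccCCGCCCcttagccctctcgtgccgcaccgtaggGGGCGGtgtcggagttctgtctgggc
ATF3: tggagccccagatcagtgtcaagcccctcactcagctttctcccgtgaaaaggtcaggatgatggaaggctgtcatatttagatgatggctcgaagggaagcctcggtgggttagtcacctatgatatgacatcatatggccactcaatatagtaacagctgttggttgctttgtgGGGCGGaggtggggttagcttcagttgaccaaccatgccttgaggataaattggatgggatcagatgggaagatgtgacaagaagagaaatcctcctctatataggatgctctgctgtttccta

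The promoter table matched 8 of the 9 genes, with 1 promoter each, and FOSL1 was not matched. For ATF3 it held the upstream start only, so the promoter at the downstream start, which has the strong region, was not searched. EGR1 carried 2 CArG boxes, with first bases at −105 and −83 from the start, and its EGR site at −198. No CArG box was found in the other 7 promoters, and 1.29% of the 35116 promoters in the table hold one. The full TGACGTCA stood in DUSP1 (at −125) and JUND (at −200), against 1.85% of all promoters. Its first 5 letters, TGACG, stood in 7 of the 8 promoters, all but the upstream one of ATF3, against 24.6% of all promoters. The TATA box was found in FOS at −33, in JUNB at −31 and in DUSP1 at −30, against 11.5% of all promoters. CCGCCC was found in 6 of the 8, in all but JUNB and EGR1, against 45.0% of all promoters, with 6 copies in JUND and 4 each in DUSP1 and IER2. The AP-1 site TGANTCA was in none of the 8 windows, against 7.71% of all promoters, and CCGGAAG, an ETS site, was in IER2 alone of the 8, against 10.3%. CCAAT was in JUN, JUNB, JUND and the upstream ATF3 promoter, against 34.6%. Every TGACGTCA contains TGACG, and in JUN 1 TGACG overlaps a GC box. These matches describe letters within 300 bases only.

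The promoters of these genes were mostly rich in G and C. The median was 69.5% G and C and 29.5 CpG dinucleotides per 300 bases, against 58.7% and 14 over all promoters. JUND was highest with 77.0% and 49 CpG. The upstream ATF3 promoter stood apart with 48.0% and 4 CpG. This was also the start with the weakest H3K4me3, although the region there lay 0.7 to 2.0 kb beyond the start, outside these 300 bases. No sequence was at hand for FOSL1 or the downstream ATF3 start. A link between base composition and the mark was not tested.

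Each gene had 1 strong, broad region of H3K4me3, spanning its start. Values are in RPM, or reads per 1000000 reads of the library. The strong regions were 3972 bp (FOS) to 9535 bp (IER2) wide with a median of 4562 bp, where the median of all regions was 1268 bp. Their mean RPM over the 3 libraries was 59.9 (DUSP1) to 171 (IER2), which put them between the 90.7th and the 99.97th percentile of all regions by level. Per kb of region they held 10.9 (EGR1) to 16.3 RPM (IER2) with mutant KDM5A, 13.3 (EGR1) to 17.3 RPM (IER2) with wild-type KDM5A and 15.6 (DUSP1) to 20.1 RPM (IER2) with the empty vector. For comparison, regions with a mean of 20 RPM or more, 10887 in all, are called strong regions below. Their median density was 17.4 RPM per kb, taken from the mean of the 3 libraries. On that measure EGR1 held 13.5, JUN 16.7 and IER2 17.9 RPM per kb. Ordered by density, all 8 pairs of neighbours had overlapping counting intervals in each library, but the ends of the order did not overlap. EGR1 was the lowest of the 9 with mutant and with wild-type KDM5A and the seventh with the empty vector.

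**Figure D1:**
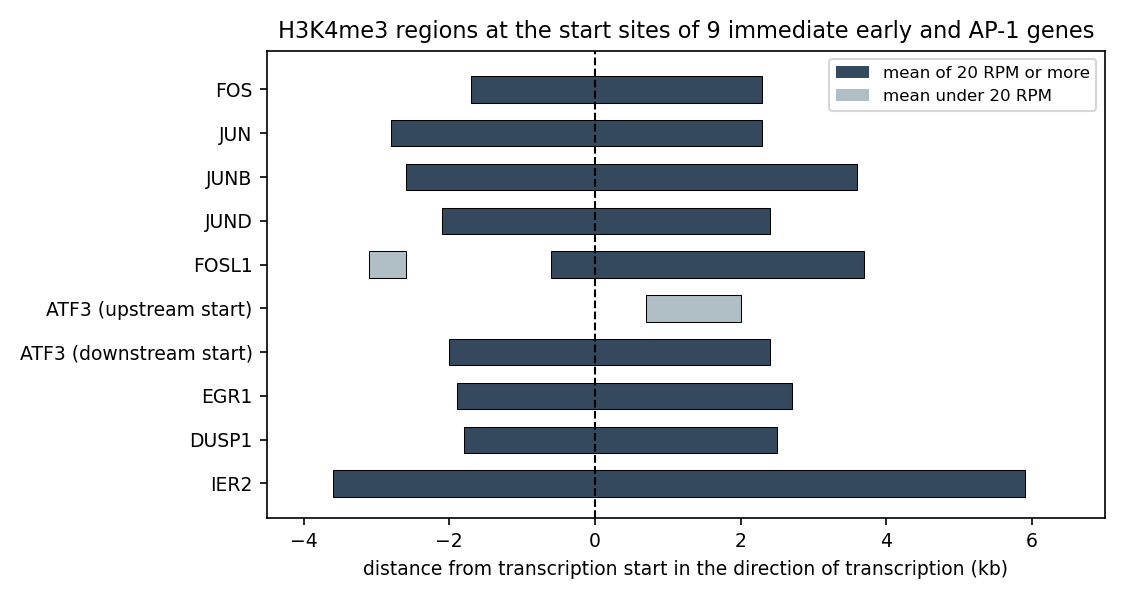
Extent of the 11 H3K4me3 regions around the transcription starts of the 9 genes, in kb along the direction of transcription, with starts known to the nearest kb. Dark bars are regions with a mean of 20 RPM or more and pale bars are weaker ones. Every dark bar spans the start, while the region at the upstream ATF3 start begins 0.7 kb beyond it.

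FOSL1 and ATF3 had a weak region besides. That of FOSL1, at chr11:65670573-65671135, lay 2.6 to 3.1 kb upstream of the start. That of ATF3, at chr1:212739693-212741042, lay 0.7 to 2.0 kb downstream of the upstream start. In the GRCh38.p14 gene table some of the 9 starts have another gene close by, and reads of a shared region cannot be divided between the genes. STX10 lies within 3 kb of the IER2 start, the long noncoding RNA JUN-DT within 3 kb of JUN, HOOK2 within 3 kb of JUNB, the microRNA gene MIR3188 and the long noncoding RNA LOC124904652 within 3 kb of JUND and a long noncoding RNA, LOC105377730, within 3 kb of DUSP1. The search used the start of each gene entry, so the downstream ATF3 start was not covered. It also stopped at 3 kb, while the IER2 region reached 5.9 kb beyond its start, so other shared regions may have been missed.

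Taken over all 9 genes, H3K4me3 was lower with either form of KDM5A than with the empty vector, and lowest with the mutant. Summed over the 9 genes, there were 655 RPM (6488 reads) in the mutant library, 737 RPM (8003 reads) in the wild-type library and 852 RPM (9127 reads) in the vector library. The ratio to the vector library was 0.769 for mutant KDM5A (95% interval 0.745 to 0.794) and 0.866 for wild-type KDM5A (0.840 to 0.892), and mutant over wild-type KDM5A was 0.888 (0.859 to 0.918). The intervals here and below come from read counts and cover counting error only. In 8 of the 9 genes the mutant library was below the wild-type library and that below the vector library, FOSL1 being the exception. The same order held for 40.1% of all regions, 71.4% of strong regions and 77.4% of the 4589 regions of 50 RPM or more. The share of all reads that fell in listed regions moved the same way, at 56.9% with mutant KDM5A, 60.7% with wild-type KDM5A and 67.0% with the empty vector. With the libraries scaled to equal sums over the listed regions, which removes that difference, the median log2 ratio of the 9 genes to the empty vector was −0.15 in place of −0.38 for the mutant and −0.078 in place of −0.22 for wild-type KDM5A. The log2 ratios of gene sums, here and below, are of RPM plus 0.7.

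**Figure D2:**
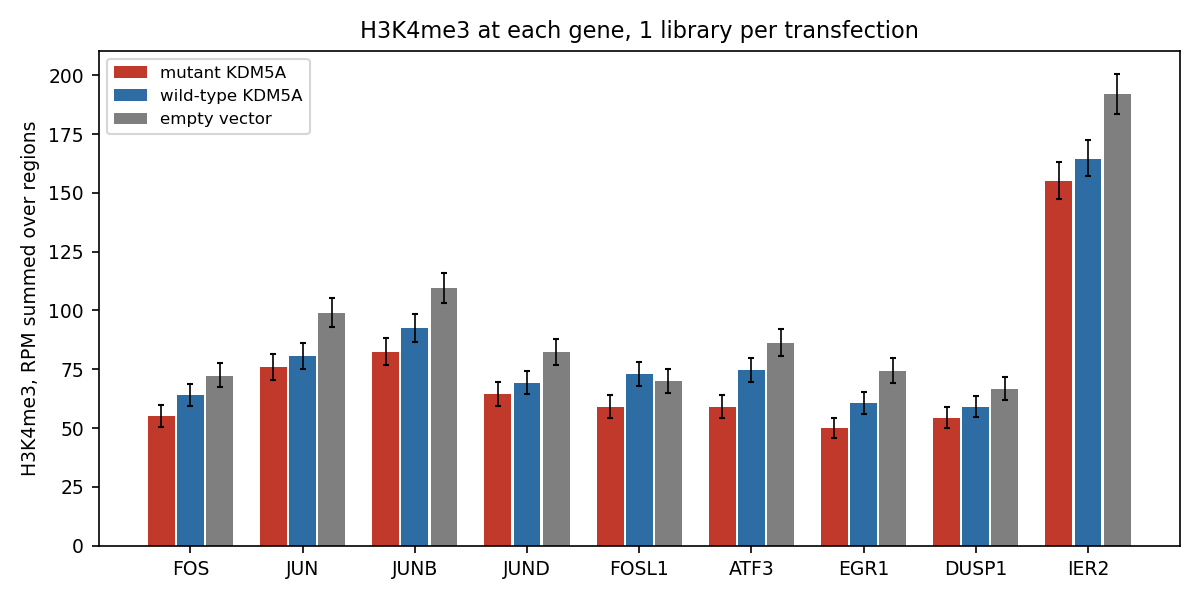
H3K4me3 at each of the 9 genes in RPM summed over its regions, for mutant KDM5A, wild-type KDM5A and the empty vector (1 library each), with 95% Poisson counting intervals. The mutant bar is the lowest at every gene, and only at FOSL1 is the wild-type bar above that of the empty vector.

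FOS, which encodes the founding FOS-family subunit of AP-1, has its region at chr14:75743300-75747271 of hg19. It had 55.1 RPM in the mutant library, 63.9 RPM in the wild-type library and 72.3 RPM in the vector library. Its ratio to the vector library was 0.762 for the mutant (0.682 to 0.851) and 0.883 for wild-type KDM5A (0.796 to 0.979). The mutant was also below wild-type KDM5A, at a ratio of 0.863 (0.770 to 0.967).

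JUN, JUNB and JUND encode the 3 JUN-family subunits, which pair with FOS-family proteins and with each other. JUN, at chr1:59246680-59251778, had 75.8 RPM in the mutant library, 80.5 RPM in the wild-type library and 98.9 RPM in the vector library. JUNB, at chr19:12899382-12905645, had 82.4 RPM in the mutant library, 92.4 RPM in the wild-type library and 109 RPM in the vector library. JUND, at chr19:18389551-18394136, had 64.3 RPM in the mutant library, 69.2 RPM in the wild-type library and 82.1 RPM in the vector library. At each JUN gene both KDM5A libraries were thus below the vector library. The ratios of the mutant to the empty vector were close to each other, 0.766 for JUN (0.697 to 0.842), 0.752 for JUNB (0.687 to 0.823) and 0.783 for JUND (0.706 to 0.868). Those of the wild-type library to the vector library were 0.814 (0.743 to 0.891), 0.844 (0.775 to 0.919) and 0.842 (0.763 to 0.930) in the same order of genes. Between the 2 forms, JUNB had a mutant/wild-type ratio of 0.891 (0.812 to 0.978), while the intervals of JUN (0.853 to 1.04) and JUND (0.835 to 1.03) included 1.

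FOSL1 encodes FRA-1, a FOS-family subunit that in many carcinoma lines is held at a steady high level by ERK signalling. Its strong region, at chr11:65664285-65668591, had 57.7 RPM in the mutant library, 70.8 RPM in the wild-type library and 68.2 RPM in the vector library. In RPM the wild-type and vector libraries were close and the mutant library was lowest, an order that depends on the scaling. Scaled to a median ratio of 1 over strong regions, the log2 ratio of FOSL1 to the vector library was 0.0029 for the mutant and 0.21 for the wild-type library, so that there the wild-type library stood above the other two. The mutant/wild-type log2 ratio was −0.30 in RPM and −0.20 under that scaling. With the weak upstream region included, the ratio to the vector library was 1.04 for wild-type KDM5A (0.941 to 1.15) and 0.845 for the mutant (0.757 to 0.943), and mutant over wild-type KDM5A was 0.812 (0.728 to 0.904). Among strong regions, 96.2% had a lower wild-type/vector log2 ratio than the strong FOSL1 region. The weak FOSL1 region had 14 reads with mutant KDM5A, 23 with wild-type KDM5A and 19 with the empty vector, and all 3 of its intervals included 1.

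ATF3 encodes a stress-induced ATF-family protein that pairs with JUN proteins or with itself. The region at its downstream start, chr1:212780033-212784441, had 55.0 RPM in the mutant library, 69.8 RPM in the wild-type library and 80.4 RPM in the vector library. The 3 libraries stepped up in that order. Its ratio to the vector library was 0.685 for the mutant (0.614 to 0.763) and 0.869 for wild-type KDM5A (0.787 to 0.959), and mutant over wild-type KDM5A was 0.788 (0.704 to 0.880). The weak region near the upstream start had 3.94 RPM (39 reads) in the mutant library, 4.70 RPM (51 reads) in the wild-type library and 5.88 RPM (63 reads) in the vector library. Its mutant/vector ratio, 0.669, was close to that of the strong region, but at this depth the interval, 0.437 to 1.01, includes 1. The weak region had the same order of libraries as the strong one, an order found at 40.1% of all regions. Its mutant/wild-type and wild-type/vector intervals also included 1, so counting error leaves the order at the weak region unresolved.

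EGR1 encodes a zinc finger transcription factor that is among the first genes to respond to serum and growth factors, through CArG boxes such as the 2 shown above. Its region, at chr5:137799104-137803665, had 49.9 RPM in the mutant library, 60.4 RPM in the wild-type library and 74.3 RPM in the vector library. The mutant/vector ratio was 0.671 (0.599 to 0.752), the lowest of the 9 genes, and 0.560% of strong regions had a lower log2 ratio. That of the wild-type library to the vector library was 0.814 (0.733 to 0.903), and that of mutant to wild-type KDM5A 0.825 (0.733 to 0.929).

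DUSP1 and IER2 are not transcription factors of the AP-1 or EGR families. DUSP1, a phosphatase that switches off the MAP kinases which induce these genes, has its region at chr5:172195545-172199815. It had 54.3 RPM in the mutant library, 59.0 RPM in the wild-type library and 66.6 RPM in the vector library. Its ratios to the empty vector were 0.816 for the mutant (0.728 to 0.914) and 0.886 for wild-type KDM5A (0.795 to 0.987). IER2, a nuclear protein gene induced together with FOS, lies under the widest region of the 9, at chr19:13257378-13266912, which may be shared with STX10. There the values were 155 RPM in the mutant library, 165 RPM in the wild-type library and 192 RPM in the vector library. The ratios to the empty vector were 0.808 for the mutant (0.756 to 0.864) and 0.858 for wild-type KDM5A (0.804 to 0.914). For both genes the interval of mutant over wild-type KDM5A included 1, at 0.820 to 1.03 for DUSP1 and 0.879 to 1.01 for IER2.

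**Figure D3:**
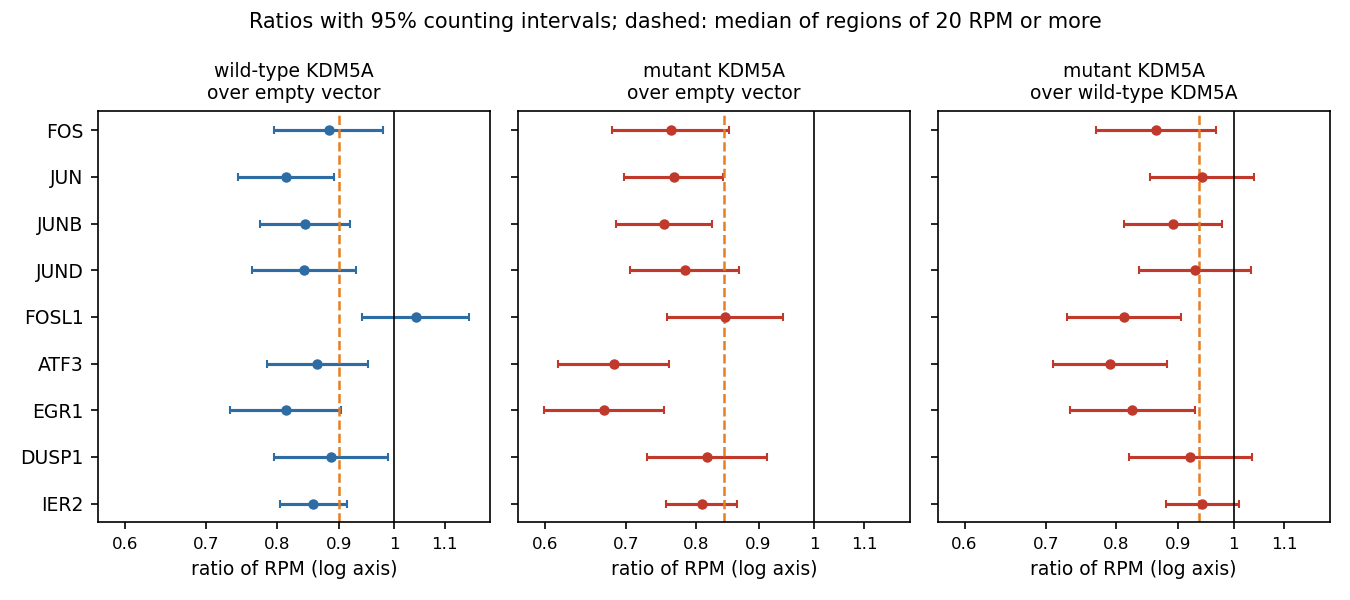
Ratios of RPM for each gene and each pair of libraries, with exact 95% counting intervals, on log axes. The solid line is a ratio of 1 and the dashed line the median ratio of strong regions, and EGR1 and ATF3 lie farthest left under mutant KDM5A over the empty vector.

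The first comparison asks whether wild-type KDM5A put back into knockout cells changed the mark at these genes. Wild-type KDM5A was below the empty vector at 8 of the 9 genes, all but FOSL1, against 66.7% of all regions and 91.4% of strong regions. For those 8 genes the interval of the ratio lay below 1, as it did for 40.9% of strong regions and 53% of regions of 50 RPM or more, the range in which all 9 genes lie. None of the 9 was 1.5-fold lower or higher, against 12.8% of all regions, most of them weak, and 0.0919% of strong regions, and none had a log2 ratio at least 0.32 below 0, against 17% of all regions and 5.36% of strong regions. The median log2 ratio of the 9 genes was −0.22, from −0.29 (JUN, with EGR1 at the same rounded value) to 0.058 (FOSL1), against −0.11 over all regions, −0.15 over strong regions and −0.15 over regions of 50 RPM or more. Compared with the median ratio of strong regions, 0.901, the interval of JUN lay below it, that of FOSL1 above it and those of the other 7 genes included it. Among strong regions 4.97% had an interval below that median and 5.05% one above it, and among regions of 50 RPM or more 5.91% and 4.84%.

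The same question was asked of the mutant. It was below the empty vector at 9 of 9 genes, against 70.5% of all regions and 98% of strong regions, and every interval lay below 1, against 69% of strong regions and 81.4% of regions of 50 RPM or more. None was 1.5-fold lower or higher, against 14.8% of all regions and 0.478% of strong regions, with EGR1 closest at 1.49-fold lower and ATF3 next at 1.46-fold. A log2 ratio at least 0.32 below 0 was found at 6 of the 9, namely FOS, JUN, JUNB, JUND, ATF3 and EGR1, against 26.4% of all regions and 24.3% of strong regions. Under either scaling, to a median ratio of 1 over strong regions or to equal sums over listed regions, EGR1 alone was that low (−0.33 and −0.34), with ATF3 next at −0.30 and −0.31. The median log2 ratio was −0.38, from −0.57 (EGR1) to −0.24 (FOSL1), against −0.18 over all regions and −0.24 over strong regions as well as over regions of 50 RPM or more. The intervals of 4 genes, JUN, JUNB, ATF3 and EGR1, lay below the median ratio of strong regions, 0.843, and those of the other 5 included it. An interval below that median was found at 5.64% of strong regions, 5.95% of regions of 50 RPM or more and 4 of the 42 other early response genes described below. Both comparisons use the same vector library, so a high count of reads in that library at a gene would lower both ratios.

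The third comparison, of mutant with wild-type KDM5A, does not use the vector library. It shares the wild-type library with the first comparison and the mutant library with the second, so it is not independent of them. The mutant was below wild-type KDM5A at 9 of 9 genes, against 63.7% of all regions and 79.6% of strong regions, and the interval lay below 1 for 5 of them, FOS, JUNB, FOSL1, ATF3 and EGR1, against 20.7% of strong regions and 24.2% of regions of 50 RPM or more. None was 1.5-fold lower or higher, against 10.6% of all regions and 0% of strong regions. ATF3 alone had a log2 ratio at least 0.32 below 0, against 16% of all regions and 3.1% of strong regions, and under either scaling no gene had one (ATF3 stood at −0.24 under both). The median log2 ratio was −0.16, from −0.34 (ATF3) to −0.086 (IER2), against −0.077 over all regions and −0.093 over strong regions. The intervals of FOSL1, ATF3 and EGR1 lay below the median ratio of strong regions, 0.937. Such an interval was found at 5.25% of strong regions, 5.06% of regions of 50 RPM or more and 6 of the 42 other early response genes. In all, 27 intervals were read for the 9 genes, and none was widened for their number. Under scaling to a median ratio of 1 over strong regions, JUN and IER2 had mutant/wild-type log2 ratios just above 0 (0.0071 and 0.0084), and FOSL1 a mutant/vector log2 ratio of 0.0029. Under scaling to equal sums, JUN and IER2 were again just above 0 (0.0046 and 0.0059).

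**Figure D4:**
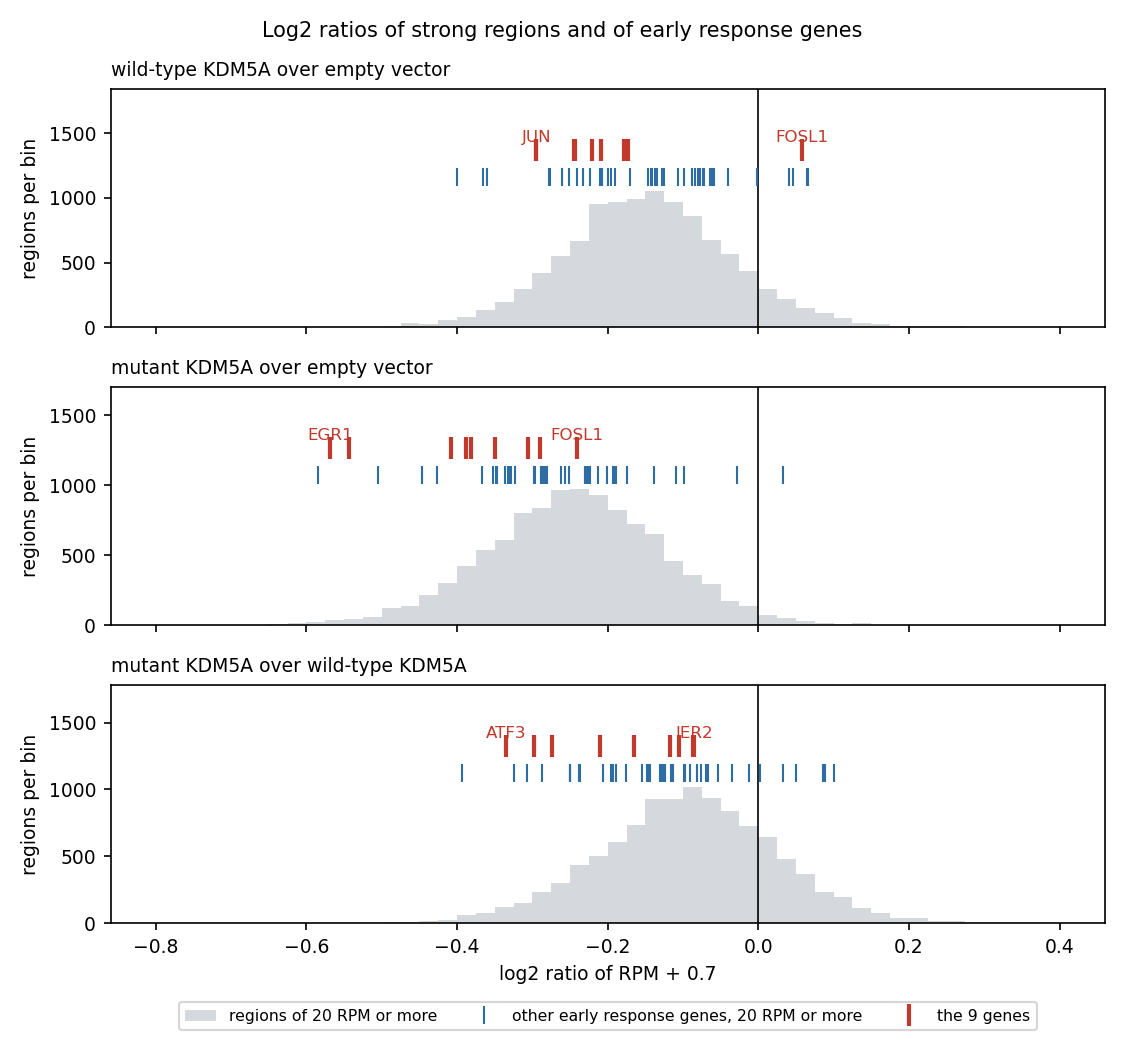
Histograms of the log2 ratio of RPM + 0.7 over the 10887 strong regions for each comparison, with the 9 genes (red ticks) and 41 other early response genes of 20 RPM or more (blue ticks) above them. The lowest and highest of the 9 genes are named, and under mutant KDM5A over the empty vector EGR1 lies at −0.57 and FOSL1 at −0.24; 7, 6 and 2 strong regions lie outside the axes, from top to bottom.

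Other genes of the early response were read in the same windows, from a list of 43 AP-1 relatives, early transcription factors, feedback inhibitors, other induced genes and upstream factors. A region was found for 42 of them, and BATF, a bZIP partner of JUN proteins known mainly from lymphocytes, had none. Summed over the 42 genes there were 2647 RPM in the mutant library, 2870 RPM in the wild-type library and 3205 RPM in the vector library, with ratios to the empty vector of 0.826 for the mutant (0.813 to 0.839) and 0.895 for wild-type KDM5A (0.882 to 0.909). The median log2 ratios to the empty vector were −0.28 for the mutant and −0.14 for wild-type KDM5A. The mutant was below the empty vector at 41 of 42 genes and by at least 0.32 in log2 ratio at 14, and wild-type KDM5A was below it at 38 and by at least 0.32 at 4. Of strong regions, 98% and 24.3% met these rules for the mutant and 91.4% and 5.36% for wild-type KDM5A. None of the 42 was past 1.5-fold on the log2 scale in any comparison. Mutant KDM5A was below wild-type KDM5A at 35 of 42, against 79.6% of strong regions.

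Among the 7 AP-1 and bZIP relatives the median mutant/vector log2 ratio was −0.30, and all 7 were below 0. FOSL2, which encodes the FOS-family protein FRA-2, had 77.4 RPM in the mutant library, 88.4 RPM in the wild-type library and 97.6 RPM in the vector library. FOSB had 54.0 RPM in the mutant library, 50.8 RPM in the wild-type library and 61.7 RPM in the vector library. JDP2, whose protein binds JUN and represses AP-1, had 35.1 RPM in the mutant library, 38.9 RPM in the wild-type library and 50.1 RPM in the vector library. FOSL2 and JDP2 thus had the same order of libraries as FOS, while FOSB was lowest with wild-type KDM5A. The order of FOS held for 31 of the 42 listed genes and 71.4% of strong regions. The mutant/wild-type interval of FOSL2 lay below 1, but those of FOSB and JDP2 included 1. Counting error thus leaves the order of the mutant and wild-type libraries unresolved at FOSB and JDP2. ATF2, a JUN partner that is present before stimulation, had the highest mutant/wild-type log2 ratio among listed genes of 20 RPM or more (0.10), with 52.9 RPM in the mutant library, 49.3 RPM in the wild-type library and 54.0 RPM in the vector library. FOSL2, FOSB and JDP2 were picked for their place in the family after their values were seen.

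The 11 EGR, KLF, NR4A and MYC genes had a median mutant/vector log2 ratio of −0.28, and all 11 were below 0. MYC had 146 RPM in the mutant library, 154 RPM in the wild-type library and 184 RPM in the vector library. NR4A1, an orphan nuclear receptor gene, had the highest wild-type/vector log2 ratio of the listed genes of 20 RPM or more (0.066), with 28.1 RPM in the mutant library, 31.8 RPM in the wild-type library and 30.3 RPM in the vector library. Of the 8 feedback inhibitors all were below 0 in the mutant/vector ratio (median −0.28). DUSP5, an ERK phosphatase gene and the strongest gene of the list, had 153 RPM in the mutant library, 167 RPM in the wild-type library and 184 RPM in the vector library. TRIB1, a pseudokinase gene and the third strongest after MYC, had 146 RPM in the mutant library, 160 RPM in the wild-type library and 169 RPM in the vector library. DUSP2, also a MAP kinase phosphatase gene, had the lowest mutant/wild-type log2 ratio (−0.39), with 41.8 RPM in the mutant library, 55.1 RPM in the wild-type library and 52.6 RPM in the vector library.

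The 13 other induced genes had a median mutant/vector log2 ratio of −0.28 and were all below 0. HBEGF, which encodes an EGF receptor ligand, had the lowest one of the list (−0.58), with 32.7 RPM in the mutant library, 40.6 RPM in the wild-type library and 49.4 RPM in the vector library. Its plain mutant/vector ratio was 0.662 (0.575 to 0.762), just past 1.5-fold lower. IER3, a stress and survival gene, had the lowest wild-type/vector log2 ratio among listed genes of 20 RPM or more (−0.40), with 50.4 RPM in the mutant library, 49.2 RPM in the wild-type library and 65.2 RPM in the vector library. The 3 upstream factors, SRF, ELK1 and ELK4, which bind the serum response element before any signal, had a median mutant/vector log2 ratio of −0.14. ELK4 had the highest of the list (0.033), with 51.8 RPM in the mutant library, 52.2 RPM in the wild-type library and 50.6 RPM in the vector library, and both of its intervals against the empty vector included 1 (0.905 to 1.16 for the mutant and 0.916 to 1.16 for wild-type KDM5A). Closest to the median of the 9 genes in both log2 ratios to the empty vector were KLF4 (distance 0.040 in log2 units), IER5 (0.045) and EGR3 (0.055), a likeness measured over 3 libraries.

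Outside the windows but within 25 kb of the starts lay 29 further regions, from 0 near JUN to 8 near JUNB. Of these 9 were strong, and their median ratio to the vector library was 0.854 for the mutant and 0.894 for wild-type KDM5A, near the medians of all strong regions. The region centred 16.7 kb downstream of the FOS start, at chr14:75760256-75763236, had 32.0 RPM in the mutant library, 31.3 RPM in the wild-type library and 34.6 RPM in the vector library, and both intervals against the empty vector included 1 (0.793 to 1.08 for the mutant and 0.779 to 1.05 for wild-type KDM5A). A region near JUND, centred at −11.4 kb from the start, at chr19:18402186-18404653, had 27.6 RPM in the mutant library, 31.0 RPM in the wild-type library and 38.1 RPM in the vector library, a mutant/vector ratio of 0.724 (0.618 to 0.846). The intervals of these flanking regions of FOS and JUND overlap.

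The other 20 flanking regions were under 20 RPM. Mutant KDM5A was above the empty vector in 11 and below it in 9, and wild-type KDM5A above it in 12 and below it in 8. Of all regions under 20 RPM, 55.4% were below 0 for the mutant and 53.2% for wild-type KDM5A. Past 1.5-fold on the log2 scale were 3 of the 20 with the mutant and 6 with wild-type KDM5A, against 14.8% and 12.8% of all regions. Those shares include strong regions, of which 0.478% and 0.0919% passed, so the shares among regions under 20 RPM alone were higher. Near JUND, the region at chr19:18383602-18386147 had 8.48 RPM in the mutant library, 8.57 RPM in the wild-type library and 5.79 RPM in the vector library, with intervals of the ratio to the empty vector of 1.04 to 2.07 for the mutant and 1.06 to 2.08 for wild-type KDM5A. Near FOSL1, the region at chr11:65679181-65680521 had 1.11 RPM in the mutant library, 1.01 RPM in the wild-type library and 2.61 RPM in the vector library. The flanking regions named here were picked after their values were seen.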

How the data were processed

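Per the submitters' processing notes, hg19 was the build, and the tools named were HOMER, MACS, MACS2, deepTools 3.5.6 and Bowtie2 2.5.4. How regions were called and duplicates handled is not stated there. The deposited table holds RPM values, as the authors computed them, for 3 H3K4me3 libraries; the empty vector column header reads H3K4me4 and was taken as H3K4me3. No background was subtracted, and input and IgG were not analysed here.

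All RPM values were whole multiples of 1 step per library within 0.02 reads, which gave 9906508 (mutant KDM5A), 10852411 (wild-type KDM5A) and 10713021 (empty vector) total reads. From these reads came exact conditional (Clopper-Pearson) intervals of ratios and Poisson intervals of levels. PCR copies are no independent molecules, and the intervals cover counting error only. No count model was fitted, since each group has 1 library. Single ratios are plain; counts and medians use log2 of RPM plus a pseudocount of 0.7. A gene's value sums its regions. The steps were tested on simulated reads with counting error only. Variation between replicates, PCR copies and shifts of a whole library were not simulated.

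Members and lists were chosen with earlier results of these data known. Named were all 9 genes and, of the list, the 3 strongest, the lowest and highest ratio per comparison among 41 genes of 20 RPM or more, genes past 1.5-fold, genes with no region and the 3 nearest to the 9 genes. FOSL2, FOSB, JDP2 and the flanking regions named were picked outside that rule, after their values were seen. List start sites were set by hand to the nearest kb of hg19 from general knowledge, with no hg19 annotation at hand. On all 11 chromosomes with several of the 52 genes, their order matched the GRCh38.p14 table. Such a check would miss a misplaced start that keeps the order. The promoter table has 9 entries for these genes; an ATF3 entry near neither start was left out. Versions were scipy 1.17.1, pandas 2.3.3, numpy 2.4.6, matplotlib 3.10.9 and Python 3.11.15.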

Additional observations from a re-analysis of the deposited data

How the results depend on the processing

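Of 162 single-gene log2 ratios under the 6 alternatives other than the threshold, 134 were counted as within their counting interval. The other 28 were not, all under the 2 scalings, and 5 changed sign, as given above. A few of the 134 lay just past the end of the ratio interval printed above. Among them was FOS for wild-type KDM5A to the empty vector, scaled to a median ratio of 1 (−0.029). Scaling to a median ratio of 1 over regions of 20 RPM or more gave median log2 ratios of −0.070 for wild-type KDM5A to the empty vector, −0.14 for mutant KDM5A to the empty vector and −0.071 for mutant to wild-type KDM5A. Scaling to equal sums over the listed regions gave −0.078, −0.15 and −0.074. Both remove the shift shared by most strong regions by construction. At a threshold of 0.32 in log2 ratio in place of 1.5-fold, 6 of 9 genes passed for the mutant against the empty vector and 1 for the mutant against wild-type KDM5A, in place of 0; that threshold together with either scaling left 1 (EGR1) and 0, and with the pseudocount of 3.5 RPM 6 and 0. Pseudocounts of 0.07 and 3.5 RPM, the strongest region of each gene alone and windows of 1 kb kept the 3 medians within the counting interval of the summed reads. No paired analysis was possible because each group has 1 H3K4me3 library. Depth limits the weak regions at FOSL1 and the upstream ATF3 start, where 14 to 63 reads per library gave intervals that include 1.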
